A study of Mus musculus with 6 samples.

Results

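The genes here are 35 nucleolar factors that assemble ribosomes, chosen by name from knowledge of ribosome biogenesis with earlier results of these data known. Of these, 34 had a probe set that names them alone, out of 19938 genes with such a probe set on the arrays; Noc2l was not analysed here. All 34 passed the filter on dim genes, which took the mean over all arrays and left 13956 genes to test. Expression was measured on 6 arrays, 1 per mouse, in 3 wild type and 3 MYB knockdown mice. Both groups were male C57BL6 mice, 4 weeks old. In both groups the cells were Kit+CD11b+Lin-Low bone marrow cells (K11bL) isolated by flow cytometry, a gate for progenitors that carry a myeloid integrin. The series title calls the cells myeloproliferative; how the knockdown was made, and in which cells it acts, is not given in the sources used here.

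Ribosomes are built in the nucleolus, where RNA polymerase I copies a long precursor that is cut and modified into the ribosomal RNAs. Box C/D and box H/ACA small nucleolar ribonucleoproteins (snoRNPs) methylate and pseudouridylate the precursor, the small subunit processome folds and cuts its 5′ part, and a separate set of factors matures the large subunit. These factors are needed in amounts that follow growth, and many of their genes are known targets of MYC. MYB is a transcription factor of haematopoietic progenitors.

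Myb itself fell in the knockdown, which checks the labels. Its log2 values were 11.47, 11.46 and 11.46 in wild type mice 1 to 3 and 11.26, 11.08 and 11.14 in knockdown mice 1 to 3. The groups did not overlap, and the fall was by 0.30 ± 0.06 (SE, n = 3 per group), or 1.23-fold (adjusted p = 0.0196 by limma). The fall missed the threshold with wild type mouse 1, 2 or 3 left out (adjusted p = 0.0963, 0.0900 and 0.0928) or knockdown mouse 2 left out (0.0777), fits that have fewer mice. The array of knockdown mouse 3 was set apart from the rest. Over all probe sets it correlated at 0.977 and 0.984 with the other knockdown arrays, which correlated at 0.994 with each other. Counts of genes that rose are therefore also given without it. Differences and adjusted p values of single genes include it unless stated.

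The ribosome assembly factors were higher in the knockdown almost without exception, by small amounts. Of the 34, 33 (97.1%) had a higher knockdown mean, where 53.6% of all genes tested did. After median centring over all probe sets, or with array weights (knockdown mouse 3 at 0.13), all 34 were higher. After quantile normalization or centring over probe sets with 1 symbol, 33 were. The differences (log2 value in the knockdown less that in the wild type) ran from -0.06 for Wdr12 to 0.81 for Rrp9, with a median of 0.35 against 0.02 over all genes tested. At an adjusted p under 0.05, 13 of 34 rose (38.2%) against 6.12% of all genes tested. By the same limma test 0 fell, where 5.48% of all genes tested did. At an unadjusted p under 0.05, 0 were lower and 22 higher, against 15.0% of all genes tested that were higher. All 3 knockdown mice lay above all 3 wild type mice for 21 of the 34 (61.8%), against 19.9% of all genes tested. The largest rise was 1.75-fold and the other 12 lay between 1.27- and 1.59-fold. The cells are a mixture within the gate, so more cells that express these genes and more RNA per cell cannot be told apart. Among all genes tested 854 rose and 765 fell. After median centring over all probe sets, 1433 rose and 593 fell, and 20 of the 34 assembly factors rose against 10.3% of all genes. The median difference over all genes tested was then 0.09. After centring over probe sets with 1 symbol, 9 of the 34 rose, against 5.27% of all genes. With no filter on dim genes 9 rose as well, against 3.8%.

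**Figure D1:**
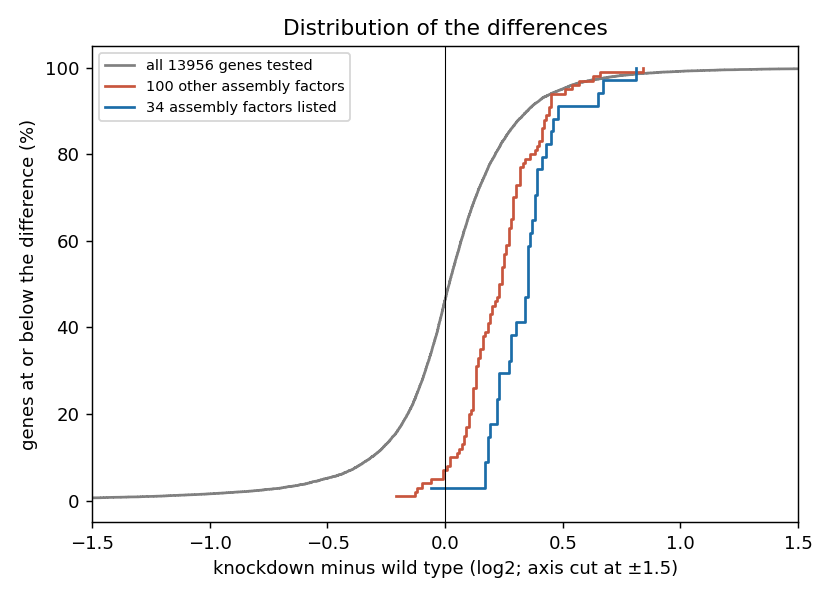
Cumulative share of genes (%) at or below each difference (log2, knockdown less wild type) for the 34 listed assembly factors, 100 other assembly factors and all 13956 genes tested; the axis ends at ±1.5. Both factor curves lie to the right of the curve of all genes, with medians of 0.35, 0.23 and 0.02.

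**Figure D2:**
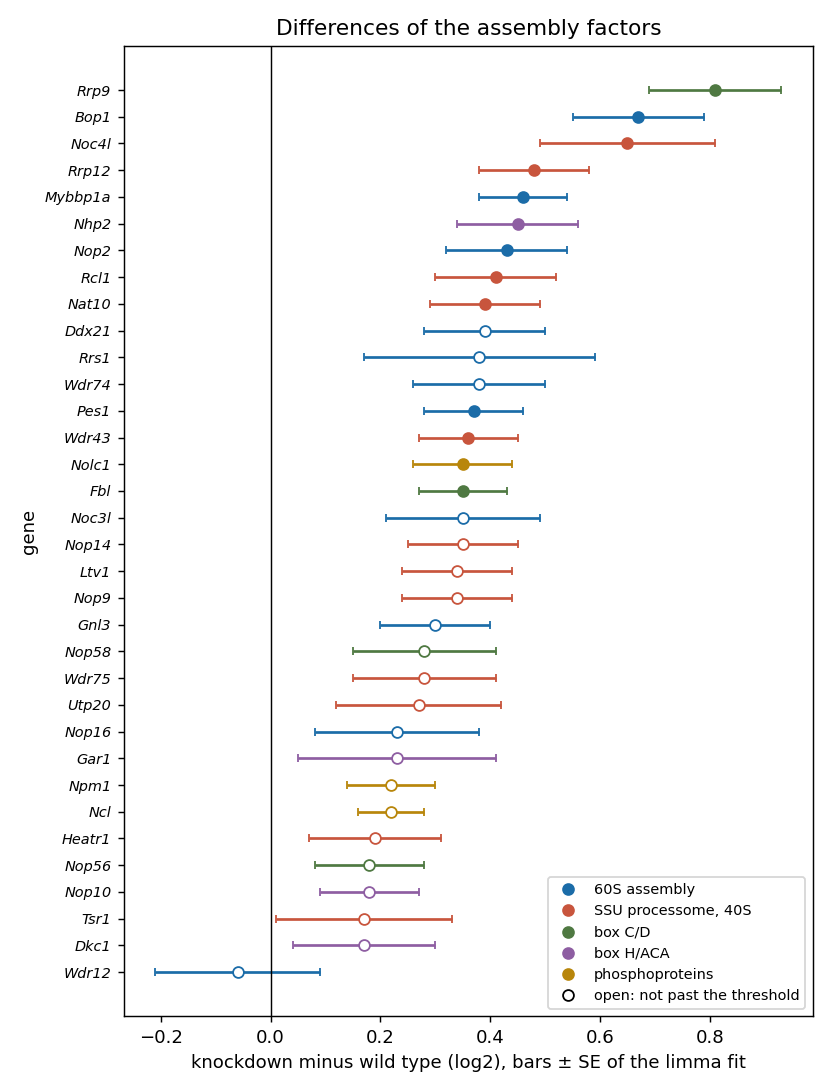
Difference of each assembly factor (log2, knockdown minus wild type, n = 3 mice per group) with bars of ± the SE of the limma fit; colours give the role and filled points passed an adjusted p of 0.05. All points but Wdr12 lie above 0. Wdr12 came to lie above 0 after median centring over all probe sets (0.02) but not over probe sets with 1 symbol (-0.06).

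The promoter letters of these genes, which the choice of genes did not use, are shown for the words searched. RefSeq promoters on GRCm38.p6, from 250 bases before to 50 after the annotated start, were matched for 29 of the 34 genes in 31 entries. Bop1, Fbl, Npm1, Rrp12 and Rrs1 had no entry in the table used here. CACGTG, the E-box that MYC and MAX bind and its own reverse complement, was in 7 of the 31 entries (22.6%), against 9.61% of 13938 entries of the genes tested and 7.15% of all 32851 entries. Of the 10 entries of genes that rose, 4 held it. The 7 stretches follow, with the word in capitals, printed 5′ to 3′ on the strand of the gene, each at most 30 bases and cut where the window ends.
Mybbp1a (rose; chr11:72441355-72441376, + strand, word at base 41 from the start): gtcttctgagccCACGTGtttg
Pes1 (rose; chr11:3963965-3963994, + strand, word at base 3): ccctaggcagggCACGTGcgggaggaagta
Nop2 (rose; chr6:125131811-125131840, + strand, word at base -60): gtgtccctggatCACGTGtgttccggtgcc
Wdr43 (rose; chr17:71616220-71616249, + strand, word at base 18): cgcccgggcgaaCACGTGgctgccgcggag
Ltv1 (did not pass; chr10:13193092-13193121, - strand, word at base 29): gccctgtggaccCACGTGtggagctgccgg
Utp20 (did not pass; chr10:88826765-88826789, - strand, word at base 38): cggcactaactaCACGTGaggaaaa
Tsr1 (did not pass; chr11:74898092-74898121, + strand, word at base 25): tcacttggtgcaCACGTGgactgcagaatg
In 6 of the 7 the word lay within the first 50 transcribed bases, and only in Nop2 before the start.

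Since Nop2 alone among them had the E-box before its start, the 250 bases before that start are printed with the word in capitals.
Nop2 (chr6:125131633-125131882, + strand): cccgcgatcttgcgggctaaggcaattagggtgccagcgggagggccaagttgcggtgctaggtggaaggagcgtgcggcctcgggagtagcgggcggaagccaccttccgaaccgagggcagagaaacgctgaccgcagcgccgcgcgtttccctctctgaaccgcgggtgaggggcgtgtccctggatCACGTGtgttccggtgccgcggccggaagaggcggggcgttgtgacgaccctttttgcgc
The word CCGGAAG, the core that ETS factors bind, was searched on both strands and was in 9 of the 31 entries (29.0%), against 15.5% of entries of the genes tested and 8.86% of all entries. Of those 9 genes 3 rose, where 10 of all 31 entries were of genes that rose. The sites of those 3 are printed as those of genes that passed the test. In 5 of the other 6 genes too (Ltv1, Wdr74, Heatr1, Gar1 and Tsr1) the word began before the start, and in Noc3l after it.
Nhp2 (chr11:51619739-51619767, + strand, word at base -23): cacttgaaaacCCGGAAGtgatgtcggag
Nop2 (chr6:125131834-125131862, + strand, word at base -38): cggtgccgcggCCGGAAGaggcggggcgt
Nolc1 (chr19:46075822-46075850, + strand, word at base -14): cgcgtgtgggaCCGGAAGcaacttctaga
The MYB site was searched as 4 words on both strands, and 8 of the 31 entries held at least 1 of them (25.8%). The share was 25.1% for entries of the genes tested and 28.3% for all entries. Of the 10 entries of genes that rose, 2 held a MYB word. The word CAACTG was in 2 entries, against 10.7% of entries of the genes tested. The word CAACGG was in 4, against 6.44%. The word TAACTG was in 3, against 6.91%, and the word TAACGG was in 1, against 3.54%. The E-box and the ETS word both occur in Nop2, Ltv1 and Tsr1; the E-box cannot overlap the ETS or MYB words in sequence. The NRF1 word was in 0 of the 31 entries, against 1.86% of entries of the genes tested. These are matches of letters, not measured binding.

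Factors of the large subunit were higher in 10 of 11 measured genes, where 53.6% of all genes tested were. By limma 4 of the 11 rose and 0 fell, where 6.12% and 5.48% of all genes tested did. At an unadjusted p under 0.05, 8 were higher and 0 lower, against 15.0% of all genes tested that were higher. The median difference was 0.38. Bop1, Pes1 and Wdr12 form a complex (PeBoW) that processes the precursor of the large subunit RNA. Bop1 had values of 8.83, 8.81 and 8.87 in wild type mice 1 to 3 and 9.31, 9.48 and 9.74 in knockdown mice 1 to 3. The gap between the groups was several times the spread within the wild type, and Bop1 rose by 0.67 ± 0.12 (1.59-fold, adjusted p = 0.00895). Pes1 read 8.70, 8.74 and 8.80 in wild type and 9.08, 9.15 and 9.13 in knockdown. It rose by 0.37 ± 0.09 (adjusted p = 0.0301), with the 3 knockdown mice close together. Wdr12, the remaining subunit, did not follow: 9.60, 9.57 and 9.64 in wild type and 9.67, 9.79 and 9.18 in knockdown. Knockdown mice 1 and 2 lay above all wild type mice and knockdown mouse 3 below all of them, so the difference was -0.06 ± 0.15 (adjusted p = 0.878). A second, dimmer probe set of Wdr12 also had knockdown mouse 3 lowest and mouse 2 highest, with 8.41, 8.27 and 8.37 in wild type, 8.41, 8.65 and 7.95 in knockdown and a difference of -0.01. Without knockdown mouse 3 the difference of Wdr12 was 0.13 ± 0.06 (adjusted p = 0.167).

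Mybbp1a encodes a nucleolar protein first known for binding MYB, and Nop2 methylates a cytosine of the large subunit RNA. Mybbp1a had values of 9.88, 9.97 and 9.96 in wild type and 10.31, 10.50 and 10.36 in knockdown. Its groups did not overlap, and it rose by 0.46 ± 0.08 (1.37-fold, adjusted p = 0.00994). Nop2, shown above with its E-box, read 9.10, 9.27 and 9.28 in wild type and 9.69, 9.79 and 9.46 in knockdown. It rose by 0.43 ± 0.11 (adjusted p = 0.0417), least in knockdown mouse 3. Ddx21, an RNA helicase that couples polymerase activity to processing, read 10.03, 10.04 and 10.15 in wild type and 10.55, 10.61 and 10.23 in knockdown. Its groups did not overlap either, with a difference of 0.39 ± 0.11 that missed the threshold (adjusted p = 0.0562). The other large subunit factors did not pass: Wdr74 differed by 0.38, Noc3l by 0.35, Gnl3 (nucleostemin, a GTPase of stem cells) by 0.30 and Nop16 by 0.23. Rrs1, which helps to place the 5S particle, was the dimmest of the 34 and had the widest wild type spread: 7.61, 6.97 and 6.93 in wild type and 7.69, 7.76 and 7.21 in knockdown. Wild type mouse 1 lay above knockdown mouse 3, and its difference of 0.38 ± 0.21 did not pass (adjusted p = 0.317).

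Factors of the small subunit were higher in 12 of 12 measured genes, where 53.6% of all genes tested were, with a median difference of 0.35. By limma 5 rose and 0 fell, where 6.12% and 5.48% of all genes tested did. At an unadjusted p under 0.05, 8 were higher and 0 lower, against 15.0% of all genes tested that were higher. Noc4l and Nop14 are partners in the small subunit processome. Noc4l had values of 8.31, 8.30 and 8.52 in wild type and 8.75, 8.94 and 9.38 in knockdown. It rose by 0.65 ± 0.16 (1.57-fold, adjusted p = 0.0395), and knockdown mouse 3 was its highest value. Nop14 read 8.30, 8.16 and 8.26 in wild type and 8.59, 8.70 and 8.48 in knockdown. The groups were apart, but the difference of 0.35 ± 0.10 missed the threshold (adjusted p = 0.0639). Rrp12, a HEAT-repeat protein that accompanies the precursor to its export, read 7.61, 7.65 and 7.61 in wild type and 8.01, 8.25 and 8.05 in knockdown. It rose by 0.48 ± 0.10 (1.40-fold, adjusted p = 0.0223) from wild type values with an SD of 0.0258.

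Nat10 acetylates cytosines of the small subunit RNA, Rcl1 takes part in its cleavage, and Wdr43 belongs to the subcomplex that binds the precursor first. Nat10 read 8.99, 9.10 and 9.13 in wild type and 9.46, 9.57 and 9.36 in knockdown, and rose by 0.39 ± 0.10 (adjusted p = 0.0357). Rcl1 read 8.93, 9.04 and 9.13 in wild type and 9.50, 9.55 and 9.29 in knockdown, and rose by 0.41 ± 0.11 (adjusted p = 0.0415). Wdr43 read 10.06, 10.11 and 10.12 in wild type and 10.44, 10.62 and 10.31 in knockdown, and rose by 0.36 ± 0.09 (adjusted p = 0.0424). In each of these 3 genes knockdown mouse 2 was highest and knockdown mouse 3 lowest of the knockdown mice, yet above every wild type mouse. Nop9, an RNA-binding protein of the small subunit precursor, read 8.19, 8.20 and 8.28 in wild type and 8.56, 8.65 and 8.49 in knockdown. It differed by 0.34 ± 0.10 (adjusted p = 0.0546). Ltv1, which stays on the late small subunit precursor, read 8.80, 8.59 and 8.75 in wild type and 9.03, 9.09 and 9.04 in knockdown, a difference of 0.34 ± 0.10 (adjusted p = 0.0562). Both had groups that did not overlap and missed the threshold narrowly. Ltv1 also lies within 20 Mb of Myb on chromosome 10 in the RefSeq annotation; Ddx21 and Utp20 are on that chromosome but farther away. Wdr43's partners in the early subcomplex, Wdr75 and Heatr1, differed by 0.28 and 0.19, and Utp20 and Tsr1 by 0.27 and 0.17; in these 4 genes the groups overlapped through knockdown mouse 3.

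**Figure D3:**
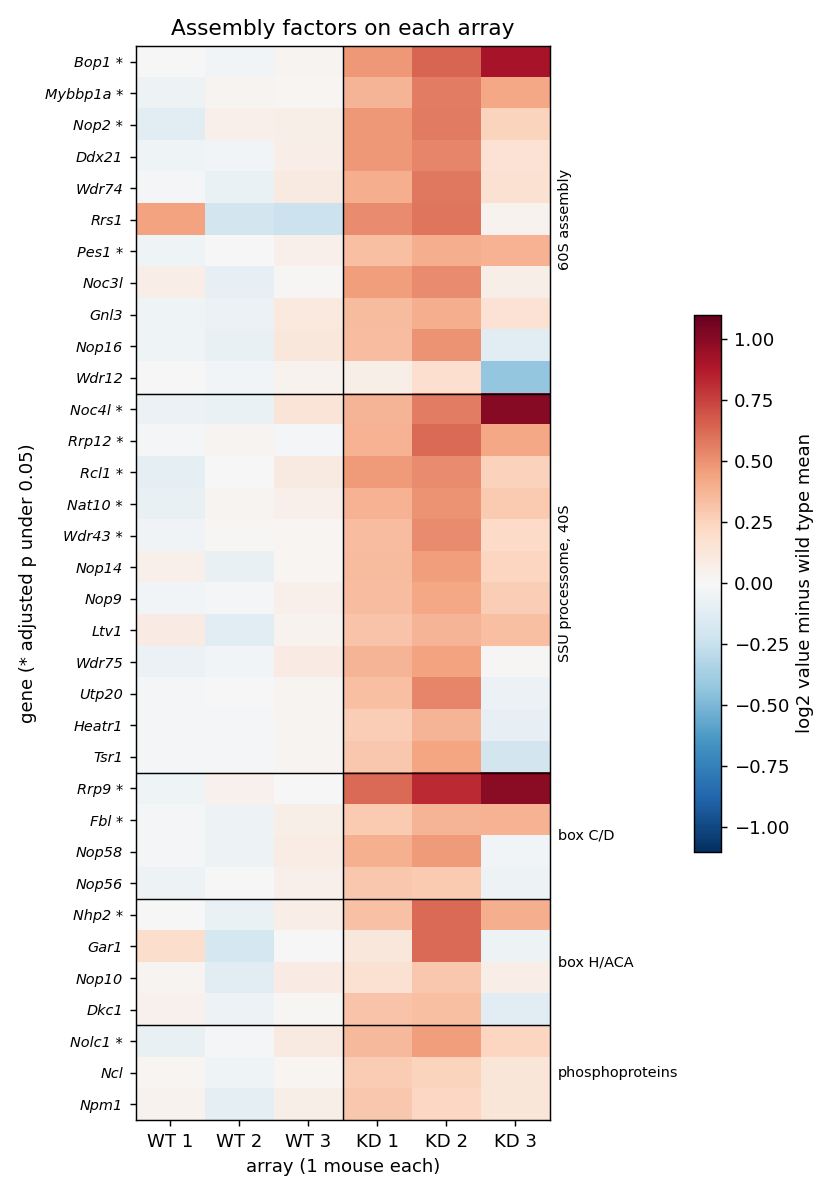
Each row is an assembly factor and each column an array (WT, wild type; KD, MYB knockdown; 1 mouse each); colour gives the log2 value minus the wild type mean, red above and blue below, and stars mark genes with an adjusted p under 0.05. Columns KD 1 and KD 2 are red throughout, while KD 3 is dark red for Rrp9, Noc4l and Bop1 and blue for 9 genes.

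All 4 box C/D and all 4 box H/ACA genes were higher in the knockdown, where 53.6% of all genes tested were. By limma 2 and 1 of them rose, where 6.12% of all genes tested did. Fbl (fibrillarin, the methyltransferase), Nop56 and Nop58 are core proteins of box C/D particles, and Rrp9 binds the U3 particle, which guides cleavage of the precursor. Rrp9 had values of 7.64, 7.74 and 7.69 in wild type and 8.31, 8.51 and 8.68 in knockdown. Every knockdown mouse lay well above the highest wild type mouse, and Rrp9 rose by 0.81 ± 0.12 (1.75-fold, adjusted p = 0.00361). Fbl read 9.94, 9.90 and 10.02 in wild type and 10.24, 10.33 and 10.34 in knockdown, and rose by 0.35 ± 0.08 (adjusted p = 0.0232). The second probe set of Fbl, slightly dimmer, read 9.88, 9.85 and 9.88 in wild type and 10.00, 10.35 and 9.86 in knockdown. Its difference was 0.20 and its groups overlapped through knockdown mouse 3, so the probe sets disagree for that mouse, and with their mean Fbl did not pass (adjusted p = 0.0907). The scaffold proteins did not pass: Nop58 differed by 0.28 ± 0.13 (adjusted p = 0.239) and Nop56 by 0.18 ± 0.10 (adjusted p = 0.324).

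Of the 4 box H/ACA proteins only Nhp2 passed the test, and no test compared them with each other. Nhp2, an RNA-binding subunit, had values of 8.69, 8.62 and 8.76 in wild type and 9.01, 9.31 and 9.09 in knockdown. It rose by 0.45 ± 0.11 (1.36-fold, adjusted p = 0.0345), with no overlap. Dkc1 (dyskerin, the pseudouridine synthase) differed by 0.17 ± 0.13, Gar1 by 0.23 ± 0.18 and Nop10 by 0.18 ± 0.09. In those 3 genes knockdown mice 1 and 2 were mostly above the wild type and knockdown mouse 3 was not: Dkc1 read 9.86, 9.75 and 9.82 in wild type and 10.12, 10.14 and 9.69 in knockdown. Among the abundant nucleolar phosphoproteins, Nolc1, a chaperone of snoRNPs, read 9.58, 9.64 and 9.76 in wild type and 10.02, 10.12 and 9.90 in knockdown, and rose by 0.35 ± 0.09 (adjusted p = 0.0465). Ncl (nucleolin) read 11.29, 11.22 and 11.29 in wild type and 11.55, 11.51 and 11.40 in knockdown. Its groups did not overlap, but the difference of 0.22 ± 0.06 missed the threshold (adjusted p = 0.0600). Npm1 (nucleophosmin), often mutated in myeloid leukaemia, differed by 0.22 ± 0.08 (adjusted p = 0.112), again with no overlap. The probe set of Ncl was brighter than 99.08% of genes. Bright probe sets can understate a change, and whether this one did was not tested.

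The knockdown mice did not contribute equally. The median shift of the 34 genes from their wild type means was 0.34, 0.48 and 0.17 in knockdown mice 1, 2 and 3, where all genes tested shifted by 0.01, 0.03 and 0.05. A wild type mouse differed from the mean of the other wild type mice by -0.04, -0.05 and 0.08 in the median over the same genes. In knockdown mouse 1, 33 of the 34 genes lay above the highest wild type mouse (97.1%), in mouse 2 all 34 and in mouse 3 only 21 (61.8%). Over all genes tested these shares were 40.9%, 41.3% and 45.1%, so the lower share in mouse 3 was seen for the assembly factors and not for genes at large; the difference was not tested. Mouse 3 was the lowest knockdown mouse for 25 of the 34 and the highest for 4, which were Bop1, Fbl, Noc4l and Rrp9. Its shifts ran from -0.43 for Wdr12 to 1.01 for Noc4l, a wider range than in mouse 1 (0.07 to 0.62) or mouse 2 (0.19 to 0.82). In mouse 3, 6 genes lay below the lowest wild type mouse: Dkc1, Heatr1, Nop16, Tsr1, Utp20 and Wdr12. Those 6 come from 3 role groups, which are both subunits and the box H/ACA particle.

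**Figure D4:**
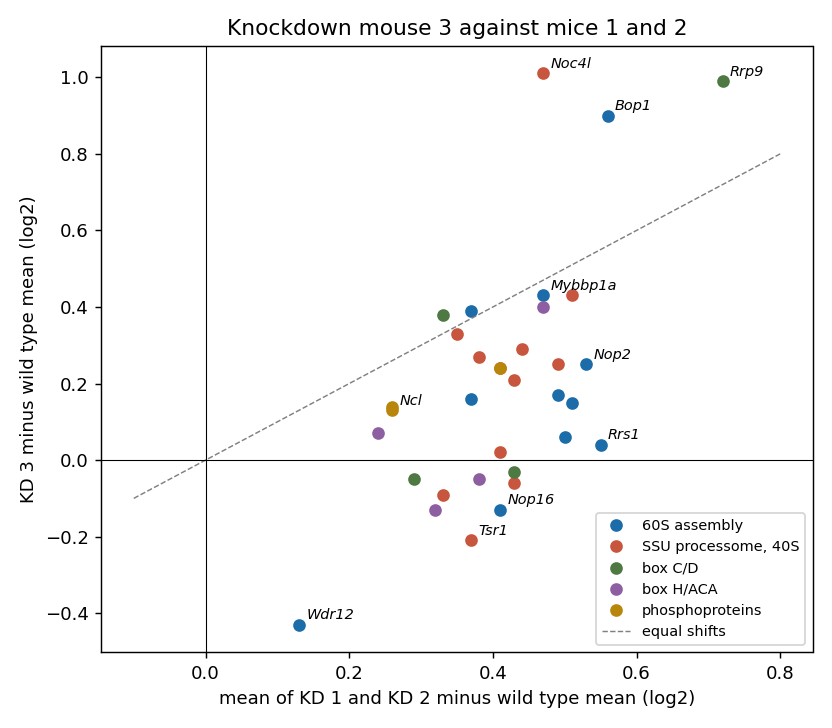
Shift of each of the 34 genes from its wild type mean (log2) in knockdown mouse 3 against the mean shift in knockdown mice 1 and 2; colours give the role and the dashed line marks equal shifts. Most points lie below the line, with Wdr12 lowest at -0.43, while Noc4l, Rrp9 and Bop1 lie clearly above it.

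The count of genes that rose depended on the arrays. Without knockdown mouse 3, 32 of 34 rose (94.1%), where 17.2% of all genes tested did, and the groups did not overlap for 33, against 32.3% of all genes tested with 2 knockdown mice. Without wild type mouse 1, 2 or 3, 1, 2 and 2 rose (2.94%, 5.88% and 5.88%), against 2.12%, 2.19% and 2.54% of all genes. Counts of 1 or 2 of 34 are near the share of all genes. Without knockdown mouse 1, 7 rose (20.6%) against 5.57%, and without knockdown mouse 2, 3 rose (8.82%) against 3.09%. The gene left without wild type mouse 1 was Rrp9; with it stood Mybbp1a without wild type mouse 2, Bop1 without wild type mouse 3, and both without knockdown mouse 2. These fits have fewer mice and share most of their arrays with each other. In each of them at least 33 of the 34 genes were higher, 18 or more at an unadjusted p under 0.05 by limma. The matching shares of all genes tested were taken only with all arrays, at 53.6% and 15.0%. Rrp9 rose in each of the 6 fits, with adjusted p values from 0.000384 without knockdown mouse 3 to 0.0295 without wild type mouse 1. The median difference of the 34 stayed between 0.28 and 0.41.

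**Figure D5:**
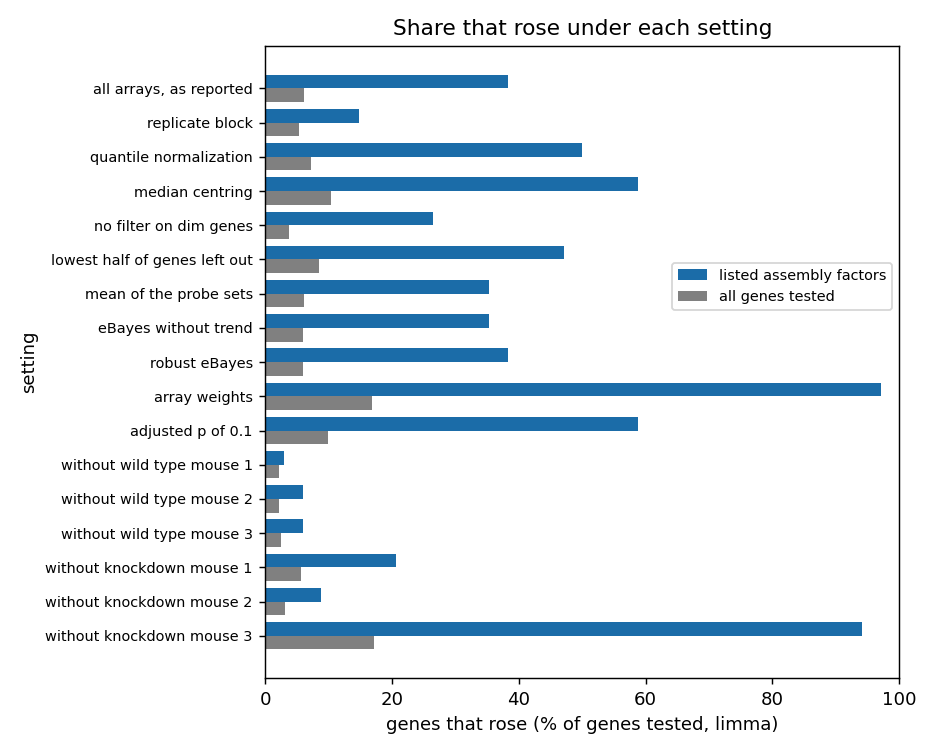
Share of genes that rose (% of genes tested, limma) among the 34 listed factors and among all genes. Each pair of bars is a setting, and the top pair is the fit as reported, at 38.2% and 6.12%. Median centring over probe sets with 1 symbol, which gave 26.5% and 5.27%, is not drawn. The share of the listed factors is lowest without wild type mouse 1, at 2.94% against 2.12% of all genes. With any 1 wild type mouse left out it rests on 1 or 2 genes, near the share of all genes. In the other pairs shown it exceeds that of all genes.

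Other ribosome assembly factors, 100 measured genes listed from knowledge of the pathway with earlier results known, were also mostly higher, with smaller differences. Of these, 93 had a higher knockdown mean, against 53.6% of all genes tested. By limma 13 rose and 0 fell, where 6.12% and 5.48% of all genes tested did. At an unadjusted p under 0.05, 45 were higher and 0 lower, against 15.0% of all genes tested that were higher. Their median difference was 0.23. Of 45 other large subunit factors 5 rose (11.1%, against 6.12% of all genes tested). Mrto4, related to the ribosomal stalk protein, rose most, from 7.64, 7.72 and 7.77 in wild type to 8.39, 8.51 and 8.76 in knockdown (0.84 ± 0.12, adjusted p = 0.00313). Rsl1d1 rose by 0.44, Gnl2, a GTPase, by 0.41 and Pelp1 by 0.57. Of 38 other small subunit factors 6 rose (15.8%, against the same 6.12%). Bysl (bystin) rose from 7.77, 7.78 and 7.91 to 8.49, 8.48 and 8.47, by 0.66 ± 0.10 (adjusted p = 0.00339), with nearly equal values in the 3 knockdown mice. Pno1 rose by 0.63, Tbl3 by 0.51 and Nol11 by 0.45. Of 17 snoRNP assembly and ribosomal DNA transcription factors 2 rose (11.8%, against the same 6.12%). Naf1, which assembles box H/ACA particles, rose by 0.42 and Snu13, which binds box C/D RNAs, by 0.25. In mouse 3 the median shift of the 100 genes was 0.02, against 0.27 and 0.36 in mice 1 and 2. Without knockdown mouse 3, 72 of the 100 rose, against 17.2% of all genes tested. With wild type mouse 1, 2 or 3 left out the number was 2, 2 and 3, where 2.12%, 2.19% and 2.54% of all genes tested rose, and with knockdown mouse 2 left out it was 2, where 3.09% did, so in these fits the 100 genes were at the share of all genes. With knockdown mouse 1 left out 10 rose, against 5.57%.

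Markers of other cell types and of the cell cycle were read on the same arrays. All 8 measured genes of the primary granule list fell, against 5.48% of all genes tested, with mean levels of 11.82 to 11.98 in wild type and 10.39 to 10.48 in knockdown arrays. That list holds the surface protein Igsf6 and also Nkg7, a gene of cytotoxic lymphocytes that is the 1 gene of the T and NK list that fell. Of 11 stem cell and early progenitor markers 9 rose, against 6.12% of all genes tested, with mean levels of at most 8.13 in wild type and 8.74 to 8.86 in knockdown arrays, and of 8 megakaryocyte markers 6 rose (7.46 to 7.56 and 8.75 to 8.83). No marker of these lists was at 0, since array values have a background. The groups of these 3 lists did not overlap, as for the assembly factors (9.23 to 9.32 and 9.47 to 9.75), and their part in the rise of the assembly factors was not tested. Of 11 erythroid markers 1 rose (9.09%), near the 6.12% of all genes tested; their median shift was 0.23, -0.16 and 0.50 in knockdown mice 1 to 3, opposite in order to that of the assembly factors. Genes of cell division were read as well. Of 15 S phase and 14 G2 and M phase genes, 0 passed by limma in either direction (2 and 0 higher, 0 and 0 lower at an unadjusted p under 0.05), with median differences of 0.07 and -0.01; at the 6.12% of all genes tested that rose, lists of this size can hold 0 called genes. Of the S phase genes 10 had a higher knockdown mean. The median shifts in knockdown mice 1 to 3 were 0.12, 0.07 and -0.03 for S phase and 0.11, 0.00 and -0.17 for G2 and M phase, lowest in mouse 3 as for the assembly factors.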

How the data were processed

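The authors deposited 1 log2 value per probe set and array. The tools named per the submitters' processing notes are limma and Affymetrix Expression Console, without version or role, and how background and arrays were corrected is not stated. Total RNA came from a Trizol extraction, and the label was biotin with a whole-transcript kit, per the labels' protocols. Values lay between 1.83 and 13.3, which set the scale as log2, and array medians between 5.87 and 5.99. Arrays have no read depth; their number limits the precision. No scan date was given.

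Of 35556 probe sets, 21789 had exactly 1 symbol in the platform annotation, 1621 several and 12146 none in the table used here. The probe set of highest mean over all 6 arrays stood for a gene, and the dimmest 30% of 19938 genes were left out. Knockdown and wild type were compared with limma 3.58.1 (R 4.3.3) (lmFit, then eBayes with an intensity trend), without covariates, with Benjamini-Hochberg adjustment over 13956 genes at 0.05; it was tested on simulated data. Differences carry the SE of this fit, over 3 separate mice per group.

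The members, lists and tests were chosen with earlier results of these data known. Named with values on every array were genes that rose, those below 0, the 5 of smallest p that did not pass, and 1 or more per role; Rrs1 was added after its values were seen. Up to 4 genes that rose were named for each other list. Upstream sequence was to be shown for up to 3 genes with an E-box before the start; only Nop2 had one, and the shorter stretches were chosen after the matches were seen. Proteins were not analysed here. Words were searched in RefSeq promoters of GRCm38.p6; no statistics were run on them. Other settings tried were a block for replicate number, leaving out each array, quantile normalization, median centring, other filters on dim genes, the mean of probe sets, eBayes without trend or robust, array weights and an adjusted p of 0.1. Median centring over probe sets with 1 symbol was added after seeing the data. In the remaining marker lists, where 6.12% of all genes tested rose and 5.48% fell, of 11 mature neutrophil markers 1 rose and 4 fell, of 10 eosinophil and basophil markers 7 fell, of 8 B lymphoid markers 4 fell, of 5 T and NK markers 1 rose and 1, Nkg7 of the primary granule list, fell, and of 11 monocyte and macrophage markers 3 rose and 2 fell.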

Additional observations from a re-analysis of the deposited data

How the results depend on the processing

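The limits are the number of mice, the mouse that stood apart, and an unstated normalization. With the replicate number as a block, 5 assembly factors of 34 and 8 other factors of 100 rose (5.35% of all genes). The numbers name different mice, and the labels give no pairing. The same-number correlations of deviations from the group means were 0.293, -0.188 and -0.083. With 3 arrays per group these cannot decide whether arrays of the same number shared a batch. Knockdown mouse 1 deviated with wild type mouse 1 and mouse 3 with wild type mouse 2 (0.365). Median centring on the whole table gave 20 and 26 (10.3%), and centring over probe sets with 1 symbol gave 9 and 8 (5.27%). Without a filter on dim genes 9 and 9 rose (3.8%). Array weights gave 33 and 67 (16.8%), with mouse 3 at a weight of 0.13. An adjusted p of 0.1 gave 20 and 24 (9.85%). With 1 mouse left out the assembly factors that rose numbered 1 to 32, the other factors 2 to 72 and the non-overlapping genes 21 to 33. With 1 mouse left out Myb differed by -0.35 to -0.26 (adjusted p up to 0.0963), by -0.23 after median centring (adjusted p = 0.0740) and by -0.30 without the trend (adjusted p = 0.0662). Wdr12 turned to 0.02 after median centring, 0.10 with array weights and 0.13 without knockdown mouse 3 (-0.18 to 0.13 with any 1 mouse left out); no other assembly factor changed direction in the settings run. The cause of these changes was not tested; fits without a mouse have fewer samples.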

Other observations

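The 3 probe sets that match both Npm1 and the predicted gene Gm15484 were not used above. They differed by 0.16, 0.12 and 0.15 (knockdown minus wild type, log2), in the direction of the probe set of Npm1 alone (0.22). The first read 11.44, 11.26 and 11.46 in wild type and 11.64, 11.51 and 11.47 in knockdown, so knockdown mouse 3 lay level with the highest wild type mouse. Of the other assembly factors, 7 had a lower knockdown mean, and none of them passed the test. The lowest was Ttf1, a termination factor of RNA polymerase I, at -0.21 ± 0.10 (adjusted p = 0.235 by limma). It read 7.58, 7.49 and 7.53 in wild type and 7.43, 7.28 and 7.26 in knockdown, so its groups did not overlap. Of the 100 other factors it was the only 1 apart in that direction, and 45 were apart upward. Over all 13956 genes tested, 2004 were apart downward and 2778 upward. Sbds and Efl1, which together release eIF6 from the large subunit, differed by -0.13 ± 0.12 and -0.01 ± 0.12. In knockdown mouse 3, Nol6, Pelp1 and Mrto4 were shifted by 0.88, 0.89 and 1.05, as Rrp9, Bop1 and Noc4l were, against 0.37, 0.41 and 0.74 in the mean of mice 1 and 2; these genes were chosen after their values were seen.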
